A study of Mus musculus with 12 samples.

Results

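A set of 10 nuclear genes whose products copy and transcribe mitochondrial DNA was followed in laser-captured motoneurons and in sciatic nerve of Gdap1 knockout and wild type mice. The genes were Polrmt, Tfam, Tfb1m, Tfb2m, Mterf3, Polg, Polg2, Twnk, Ssbp1 and Top1mt. They were chosen by name: each probe set counted whose platform annotation gave exactly 1 symbol and that symbol was a member, under its older or current name. All 10 genes were measured, by 20 of the 45037 probe sets tested, among 18193 genes with a probe set of their own. No filter on low values was applied, so every member probe set entered the tests, and probe sets of a gene read the same gene's RNA and are not independent. The choice of genes was made with earlier results of these arrays known, so the p-values below come from fits over all 45037 probe sets and describe the members.

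The series held 12 Affymetrix 3′ expression arrays in 4 groups of 3. The groups were Gdap1-/- motoneurons, wild type motoneurons, Gdap1-/- sciatic nerve lysates and wild type sciatic nerve lysates, all from untreated mice aged 2 months. The Gdap1-/- mice lacked exon 5 of Gdap1, whose product sits in the mitochondrial outer membrane. The submitters chose 3 samples per tissue and genotype from 5 mice by the amount and quality of RNA. The labels call the samples biological replicates. Values are the deposited log2 signals, so a difference of 1 is a 2-fold signal, and a difference between genotypes is knockout minus wild type with its standard error (SE) from limma.

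Mitochondria keep their own small circular genome, and every protein that copies or reads it is made in the cytosol from nuclear genes. Polrmt is the mitochondrial RNA polymerase, which also makes the primers for replication. Tfam packages the DNA into nucleoids and bends it at the promoters, and Tfb2m opens the promoter for Polrmt. Tfb1m, its relative, methylates the RNA of the small mitochondrial ribosomal subunit, and Mterf3 acts in mice as a repressor of mitochondrial transcription and in ribosome assembly. For replication, Twnk unwinds the DNA, Ssbp1 coats the exposed strand, and Polg with its accessory subunit Polg2 makes the new strand, while Top1mt relieves the twist. Motoneurons carry mitochondria down very long axons, and inherited faults of Polg or Twnk are known causes of neurological disease with neuropathy.

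The promoters are shown because most of those available share the same short stretch of letters at a similar place. RefSeq promoter sequences (build GRCm38.p6) were available for 8 of the 10 genes, not for Top1mt and Mterf3, and each was searched from 250 bases before to 50 after the transcription start. The letters CCGGAAG, the core bound by ETS-family factors, were found on either strand in 6 of the 8 genes (Polrmt, Tfam, Polg, Polg2, Ssbp1 and Twnk), against 9.93% of 27025 genes with a promoter. In the windows below, which run 5′ to 3′ on the gene's strand from 120 bases before the start to 20 after it, capitals mark CCGGAAG or its reverse complement CTTCCGG. In Polrmt the capitals near the start also mark an overlapping pair of matches to the NRF-1 consensus, searched on both strands.
Polrmt, chr10:79746562-79746701, minus strand: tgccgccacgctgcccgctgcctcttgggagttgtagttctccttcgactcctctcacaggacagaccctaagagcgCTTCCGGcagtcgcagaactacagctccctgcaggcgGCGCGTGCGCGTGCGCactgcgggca
Tfam, chr10:71238025-71238164, minus strand: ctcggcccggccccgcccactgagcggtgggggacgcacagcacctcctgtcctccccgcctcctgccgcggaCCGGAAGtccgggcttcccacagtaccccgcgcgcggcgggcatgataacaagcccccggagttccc
Polg, chr7:79466254-79466393, minus strand: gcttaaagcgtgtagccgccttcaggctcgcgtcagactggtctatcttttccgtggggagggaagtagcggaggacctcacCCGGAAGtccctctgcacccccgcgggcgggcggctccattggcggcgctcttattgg
Polg2, chr11:106779518-106779657, minus strand: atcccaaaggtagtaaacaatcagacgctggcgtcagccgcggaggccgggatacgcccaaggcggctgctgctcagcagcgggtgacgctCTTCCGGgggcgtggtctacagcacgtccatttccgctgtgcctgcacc
Ssbp1, chr6:40471348-40471487, plus strand: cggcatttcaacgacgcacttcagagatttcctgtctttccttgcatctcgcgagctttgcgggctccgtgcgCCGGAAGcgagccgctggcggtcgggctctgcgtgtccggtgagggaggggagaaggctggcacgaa
Twnk, second start in the table, chr19:45006438-45006577, plus strand: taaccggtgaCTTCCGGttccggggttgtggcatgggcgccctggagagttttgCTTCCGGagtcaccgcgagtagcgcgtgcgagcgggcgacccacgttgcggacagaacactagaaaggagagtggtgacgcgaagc

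In these windows the ETS letters began 43 bases before the start in Polrmt, 47 in Tfam, 38 in Polg, 29 in Polg2 and 47 in Ssbp1. The second Twnk start had them 110 and 66 bases before it, and the first Twnk start had 0 matches. A match beginning 29 to 47 bases before the start, a span set by these members, was present in 1.21% of all 32851 promoters. The NRF-1 consensus was found in Polrmt only among the 8 genes, against 5.19% of all genes. The Sp1 letters GGGCGG were in 6 of 8 genes against 38.2%, the letters CCAAT in 2 of 8 against 41.1%, and the YY1 letters AAGATGGCG in 0 of 8 against 1.64%. The background was not matched for GC content, which had a median of 52.67% over all promoters. Of the members with ETS letters, GC was 70.33% in Tfam, 65% at the second Twnk start, 59.33% in Polg and 58% in Ssbp1. It was 53.33% in Polg2 and 52% in Polrmt. These matches describe letters in a window and not binding in these cells.

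The tissue labels were checked against marker genes. The mean level of 9 motoneuron markers was 11.62 to 11.92 in motoneuron arrays and 6.62 to 7.23 in nerve arrays.  Wild type motoneuron array 3 had a higher mean correlation with the 3 knockout arrays (0.98899) than with its own group (0.98667). In nerve, correlation with the other genotype was also the higher for wild type arrays 1 (0.98990 against 0.98850) and 2 (0.99052 against 0.98496). The same held for knockout nerve array 3 (0.98898 against 0.98878). The hybridization control bioB did not overlap between genotypes in either tissue, with 10.22 to 10.45 in knockout and 10.82 to 11.05 in wild type motoneurons, and 10.28 to 10.38 in knockout and 11.19 to 11.47 in wild type nerve. Markers of other cells were present in the captured motoneurons. The mean of 5 spinal interneuron markers was 10.93 to 11.81 in knockout and 10.82 to 11.85 in wild type motoneuron arrays. In nerve it was 4.37 to 5.76 in knockout and 4.25 to 4.43 in wild type arrays. The mean of 7 of 8 listed oligodendrocyte markers was 11.68 to 12.31 in knockout and 12.06 to 12.58 in wild type arrays. That of 8 astrocyte markers was 10.17 to 10.56 in knockout and 10.42 to 10.81 in wild type arrays. Endothelial and mural markers, 8 in all, were far lower, at 6.67 to 6.89 in knockout and 7.06 to 7.20 in wild type arrays. The medians of all probe sets on these arrays were 6.53 to 6.59. In nerve, 10 skeletal muscle markers averaged 10.32 to 11.55 in knockout and 8.50 to 14.18 in wild type lysates. Xist and Eif2s3y pointed to both sexes among the mice: in motoneurons Eif2s3y was high in knockout array 2 only (10.95). In nerve Eif2s3y was high in wild type arrays 1 and 3 and knockout arrays 1 and 2 (12.58 to 12.77). Xist was high in wild type nerve array 2 (12.49) and knockout nerve array 3 (12.54). Per the submitters, the 4 Gdap1 probe sets lie in exons 4 and 6, outside the deletion, and so do not test it. Their differences in motoneurons were -0.025, 0.70, -0.13 and 0.34 (adjusted p 0.123 to 0.863). The part of any of these in the results below was not tested.

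In Gdap1-/- motoneurons no member probe set passed the test. The highest-mean probe sets of 7 of the 10 genes read higher than in wild type, and the Mterf3 probe sets went opposite ways. With limma and Benjamini-Hochberg adjustment over all 45037 probe sets, 0 of the 20 member probe sets passed an adjusted p of 0.05, as did 0% of all probe sets. At an unadjusted p under 0.05 there were 8 of 20, 7 higher and 1 lower in knockout, where the share of all probe sets was 17.0%. In a fit of only the probe sets with a mean above the median, the counts were 7 of 17 members and 5999 of 22518 probe sets. Knockout and wild type values did not overlap in 8 of 20, against 22.5% of all probe sets. Of these, 7 were higher in knockout (12.7% of all probe sets) and 1 was lower (9.77%). Of the 20, 12 had a higher mean in knockout (60%), against 55.7% of all probe sets. Over the highest-mean probe set of each gene, 7 were higher and 3 lower (70% higher, against 52.7% of all genes), with a median difference of 0.26 against 0.019 for all genes. In captured tissue, fewer cells of a type and less RNA per cell cannot be told apart.

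**Figure D1:**
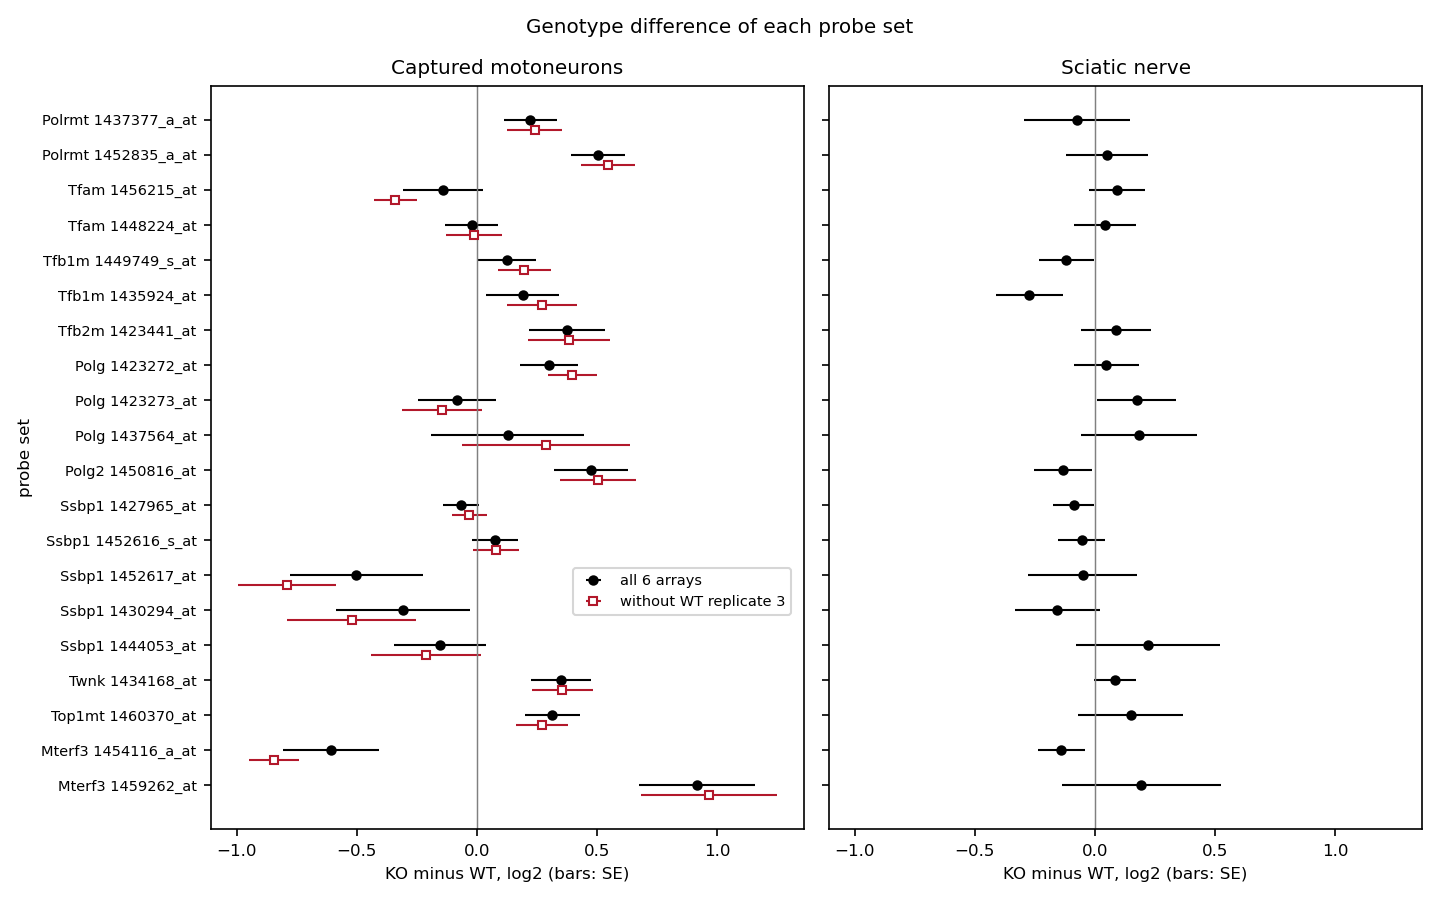
Knockout minus wild type difference (log2, x axis) with its SE for each of the 20 member probe sets (y axis), in motoneurons and in nerve; open squares leave out wild type motoneuron array 3. In motoneurons most of the brighter probe sets lie right of 0 and Mterf3 1454116_a_at lies at -0.61, while in nerve the representing probe sets lie between -0.14 and 0.15.

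Both probe sets of the RNA polymerase Polrmt separated the genotypes. Probe set 1452835_a_at read 11.18, 11.43 and 11.22 in knockout motoneurons, against 10.67, 10.79 and 10.86 in wild type motoneurons. Every knockout array was above every wild type array. The difference was 0.50 (SE 0.11), a 1.42-fold higher signal, with an adjusted p of 0.123 by limma. The other Polrmt probe set, 1437377_a_at, read 11.08, 11.27 and 11.03 in knockout against 10.81, 10.97 and 10.94 in wild type motoneurons. Its groups did not overlap either, by a smaller difference of 0.22 (SE 0.11, adjusted p = 0.359 by limma).

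Tfam, the packaging and initiation factor, did not follow Polrmt. Its brighter probe set 1456215_at read 12.36, 12.18 and 12.46 in knockout and 12.67, 12.67 and 12.08 in wild type motoneurons, so the groups overlapped through wild type array 3. The difference was -0.14 (SE 0.17, adjusted p = 0.722 by limma), and -0.34 without that array (adjusted p = 0.0544 by limma). The other Tfam probe set, 1448224_at, differed by -0.022. For Tfb2m, the promoter-opening factor, knockout motoneurons read 11.14, 10.62 and 11.08 against 10.65, 10.48 and 10.59 in wild type. Knockout array 2 lay among the wild type arrays, and the difference of 0.38 (SE 0.16) had an adjusted p of 0.284 by limma. Tfb1m, the ribosomal RNA methyltransferase, differed by 0.12 and 0.19 at its probe sets 1449749_s_at and 1435924_at, with overlapping groups at both. The suffix _s_at marks a probe set whose probes can match more than 1 transcript.

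Mterf3 1454116_a_at was the only member probe set in motoneurons whose groups separated with knockout lower. It read 10.66, 10.46 and 10.60 in knockout motoneurons, against 11.41, 11.42 and 10.71 in wild type motoneurons. Wild type array 3 sat just above the knockout arrays and the other wild type arrays sat well above them. The difference was -0.61 (SE 0.20, adjusted p = 0.198 by limma), which is 0.657 of the wild type signal. Without wild type array 3 it was -0.84 (SE 0.10) and passed, with an adjusted p of 0.00692 by limma. The other Mterf3 probe set, 1459262_at, went the other way. It was dim, above only 21.5% of the probe sets in knockout motoneurons, and read 4.20, 3.99 and 4.25 in knockout against 3.64, 2.72 and 3.33 in wild type motoneurons. That is a difference of 0.91 (SE 0.24, adjusted p = 0.141 by limma), and the mean of both probe sets was 0.15 higher in knockout.

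The replication genes had the same direction at their brighter probe sets, apart from Ssbp1. Polg2, the accessory subunit of the polymerase, read 9.51, 9.34 and 9.50 in knockout motoneurons against 9.07, 8.83 and 9.03 in wild type motoneurons. The groups were apart, by 0.48 (SE 0.15), a 1.39-fold higher signal with an adjusted p of 0.192 by limma. Polg, the catalytic subunit, read 11.31, 11.36 and 11.24 in knockout against 11.00, 10.81 and 11.20 in wild type motoneurons at probe set 1423272_at. Its groups did not overlap, although knockout array 3 and wild type array 3 nearly met. The difference was 0.30 (SE 0.12, adjusted p = 0.274 by limma). At the dimmer Polg probe sets it was -0.082 (1423273_at) and 0.13 (1437564_at), with overlapping groups.

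Twnk, the helicase, read 10.44, 10.27 and 10.54 in knockout motoneurons against 10.08, 10.05 and 10.08 in wild type motoneurons. Its wild type arrays lay close together (SD 0.0205, n = 3) and below all knockout arrays, and the difference was 0.35 (SE 0.13, 1.27-fold, adjusted p = 0.226 by limma). Top1mt, the topoisomerase, read 10.47, 10.51 and 10.54 in knockout against 10.20, 10.27 and 10.11 in wild type motoneurons. Both groups were tight and separate, with a difference of 0.31 (SE 0.11, 1.24-fold, adjusted p = 0.232 by limma). Ssbp1, the binding protein of unpaired DNA, differed by -0.067 at its brightest probe set 1427965_at, where knockout motoneurons read 12.36, 12.25 and 12.21 and wild type motoneurons 12.33, 12.28 and 12.41. Its 4 other probe sets differed by 0.075 (1452616_s_at), -0.50 (1452617_at), -0.31 (1430294_at) and -0.15 (1444053_at). All 5 Ssbp1 probe sets had overlapping groups.

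**Figure D2:**
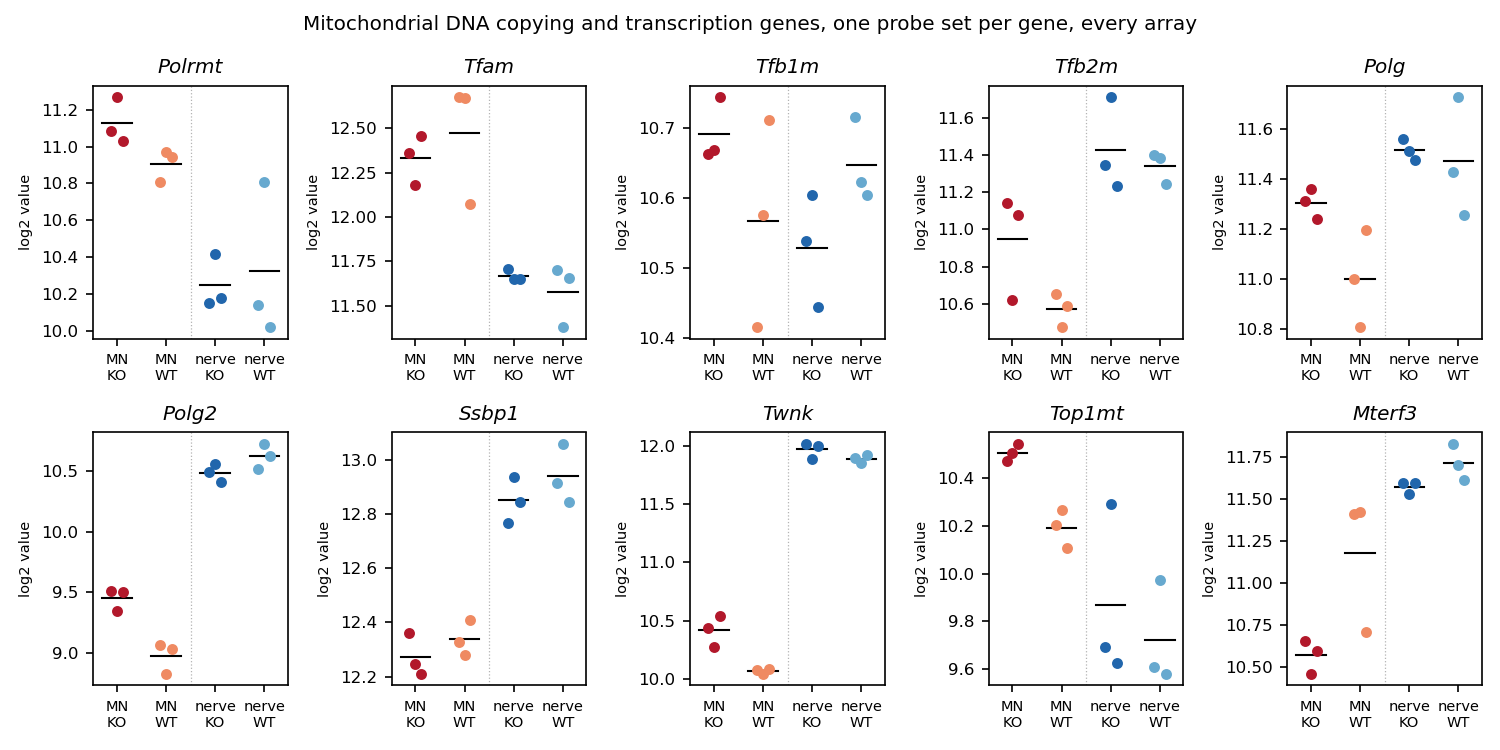
Deposited log2 signal (y axis) of each member's highest-mean probe set on each array, in knockout and wild type motoneurons and knockout and wild type nerve, with bars at the group means. The 3 knockout points lie apart from the 3 wild type points in motoneurons for Polrmt, Polg, Polg2, Twnk, Top1mt and Mterf3, and wild type motoneuron array 3 sits near the knockout arrays for Mterf3.

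With all arrays kept, the number of calls in motoneurons was 0 as reported, 61 with brighter probe sets only and 828 with all 12 arrays in 1 fit. Among the alternatives it was highest without wild type array 3. On that array 5 spinal interneuron markers averaged 10.82, against 11.85 and 11.78 on the other wild type arrays and 10.93 to 11.81 on knockout arrays. Its 18S RNA signal was 10.86, against 10.37 and 10.44 on the other wild type arrays and 10.72 to 10.98 on knockout arrays. The 3′ minus 5′ signal of β-actin was 1.501 to 1.67 on knockout and 1.62 to 1.97 on wild type motoneuron arrays, with array 3 the lowest wild type at 1.62. The part of these in the calls was not tested. Without that array, 4646 probe sets passed, 10.3% of all tested, and 2 of the 20 member probe sets were among them. These were Polrmt 1452835_a_at, higher in knockout (0.55, adjusted p = 0.0263 by limma), and Mterf3 1454116_a_at, lower in knockout. That share, 2 of 20, is near the background. Leaving out any other motoneuron array gave 0 calls. By mean correlation array 3 lay nearer the knockout arrays than its own group, so leaving it out can by itself widen differences. Results without it, above and below, describe that dependence and are no separate support. Down-weighting arrays by limma's array weights let 2929 probe sets pass, with Polrmt 1452835_a_at (0.51, adjusted p = 0.0317) and Mterf3 1454116_a_at (-0.72, adjusted p = 0.0356) again the members.

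In sciatic nerve the members' genotype differences were small and no probe set passed. By limma, 0 of 20 member probe sets passed, as did 0% of all, and 0 of 20 had an unadjusted p under 0.05, against 2.31% of all probe sets. The representing probe sets of 5 genes were higher and of 5 lower in knockout nerve, with a median difference of -0.013. Knockout and wild type nerve did not overlap at 3 of 20 probe sets, against 7.26% of all. None of these was higher in knockout (3.58% of all), and 3 were lower (3.67% of all).

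Those 3 belonged to Tfb1m and Mterf3. Tfb1m 1435924_at read 9.34, 9.63 and 9.47 in knockout nerve against 9.82, 9.72 and 9.73 in wild type nerve. All knockout lysates were below all wild type lysates, by 0.27 on average (difference -0.27, SE 0.14, adjusted p = 1 by limma). At the other Tfb1m probe set the difference was -0.12, with the nearest knockout and wild type lysates both at 10.60. Mterf3 1454116_a_at read 11.59, 11.53 and 11.59 in knockout nerve against 11.82, 11.70 and 11.61 in wild type nerve. The difference of -0.14 had the sign seen in motoneurons and an adjusted p of 1 by limma.

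For the polymerases and the helicase, nerve values overlapped. Polrmt 1437377_a_at read 10.15, 10.42 and 10.18 in knockout nerve against 10.14, 10.81 and 10.02 in wild type nerve (difference -0.074). Polg2 read 10.50, 10.56 and 10.41 in knockout nerve against 10.52, 10.73 and 10.63 in wild type nerve (difference -0.13). Twnk read 12.02, 11.89 and 12.005 in knockout nerve against 11.89, 11.85 and 11.92 in wild type nerve (difference 0.082). In Polrmt and Top1mt the high lysates were knockout 2 and wild type 2. Top1mt read 9.69, 10.29 and 9.63 in knockout nerve against 9.61, 9.97 and 9.58 in wild type nerve. The same pair had the lowest skeletal muscle marker levels of their groups, 10.32 in knockout 2 and 8.50 in wild type 2. Xist was high in wild type 2 (12.49) and low in knockout 2 (4.99). The part of muscle RNA or sex in these values was not tested.

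The genotype difference was also compared between tissues, as motoneurons minus nerve. No member passed, as was true of 0% of all probe sets, and 3 of 20 had an unadjusted p under 0.05, against 7.54% of all. Polg2 had the smallest p among the members: its genotype difference was 0.61 larger in motoneurons than in nerve (SE 0.18, unadjusted p = 0.00559, adjusted p = 0.598 by limma). Over all the alternatives tried, that value for Polg2 ran from 0.54 to 0.67. The others were Tfb1m 1435924_at at 0.46 and Polrmt 1452835_a_at at 0.45. For Mterf3 1454116_a_at the value was -0.47 (adjusted p = 0.680 by limma), and without wild type motoneuron array 3 it was -0.70 (adjusted p = 0.0529 by limma).

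Levels were then set between tissues within each genotype. The deposited values of the tissues have different medians, 6.53 to 6.59 in motoneurons and 8.29 to 8.40 in nerve. So each difference was computed on the deposited scale, after quantile normalization, and after centring each array on its median. The quantile normalization took both tissues' arrays of a genotype together. Motoneurons and nerve also differed in collection and RNA kit, which cannot be told apart from tissue. On the deposited scale 15 of 20 member probe sets passed by limma in wild type mice (5 higher and 10 lower in motoneurons), against 82.1% of all probe sets. In knockout mice 13 of 20 passed (5 higher and 8 lower), against 82.7%. The share of all calls that were higher in motoneurons moved from 18.4% to 54.7% and 69.5% over these scalings in knockout mice and from 17.4% to 54.6% and 69.0% in wild type mice, so most directions depend on the scaling.

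The genes Polrmt, Tfam and Top1mt, 3 of 10, were higher in motoneurons under every scaling and in both genotypes at their highest-mean probe sets and passed each time, against 16.3% of all genes. On the deposited scale in wild type mice, the call of Polrmt 1437377_a_at was lost on leaving out wild type nerve array 1 or 3 or any wild type motoneuron array (adjusted p 0.0635 to 0.115 by limma). That of Top1mt was lost without wild type nerve array 1 or 3 or wild type motoneuron array 1 or 2 (adjusted p 0.0761 to 0.0951 by limma). At the probe set level these were 5 of 20, both of Polrmt, Tfam 1456215_at, Top1mt 1460370_at and the dim Ssbp1 1444053_at, against 12.9% of all probe sets that passed all 6 tests in that direction. None of the 20 passed all 6 tests with nerve higher, against 22.1% of all probe sets, and Polg 1437564_at was higher in nerve in all 6 without passing each time. Tfam 1456215_at was higher in motoneurons by 0.66 in knockout and 0.90 in wild type mice on the deposited scale, by 1.36 and 1.57 after quantile normalization, and by 2.44 and 2.66 after centring. The other Tfam probe set, 1448224_at, differed by -0.078 in knockout and -0.014 in wild type mice as deposited (adjusted p = 0.505 and 0.930 by limma), by 0.67 and 0.73 by quantiles, and by 1.70 and 1.75 after centring. For Polrmt 1437377_a_at the same differences were 0.88 in knockout and 0.58 in wild type mice as deposited, 1.79 and 1.51 by quantiles, and 2.65 and 2.34 after centring. Top1mt gave 0.64 and 0.47 as deposited, 1.66 and 1.54 by quantiles, and 2.41 and 2.23 after centring, knockout before wild type.

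On the deposited scale Twnk and Polg2 had the lowest of the 10 tissue differences in both genotypes. Twnk was lower in motoneurons by 1.55 in knockout (difference -1.55, adjusted p = 1.49e-06 by limma) and by 1.82 in wild type mice (difference -1.82, adjusted p = 2.34e-06 by limma). Quantile normalization gave -0.78 in knockout and -1.0 in wild type mice, and centring gave 0.22 and -0.061, so the sign was not settled. Polg2 differed by -1.04 in knockout and -1.65 in wild type mice as deposited, by -0.0065 and -0.59 by quantiles, and by 0.74 and 0.11 after centring. Set by rank within an array, Twnk lay above 79.1% of probe sets in knockout motoneurons and 85.4% in knockout nerve, while Polrmt 1437377_a_at lay above 84.5% in knockout motoneurons and 69.4% in knockout nerve.

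**Figure D3:**
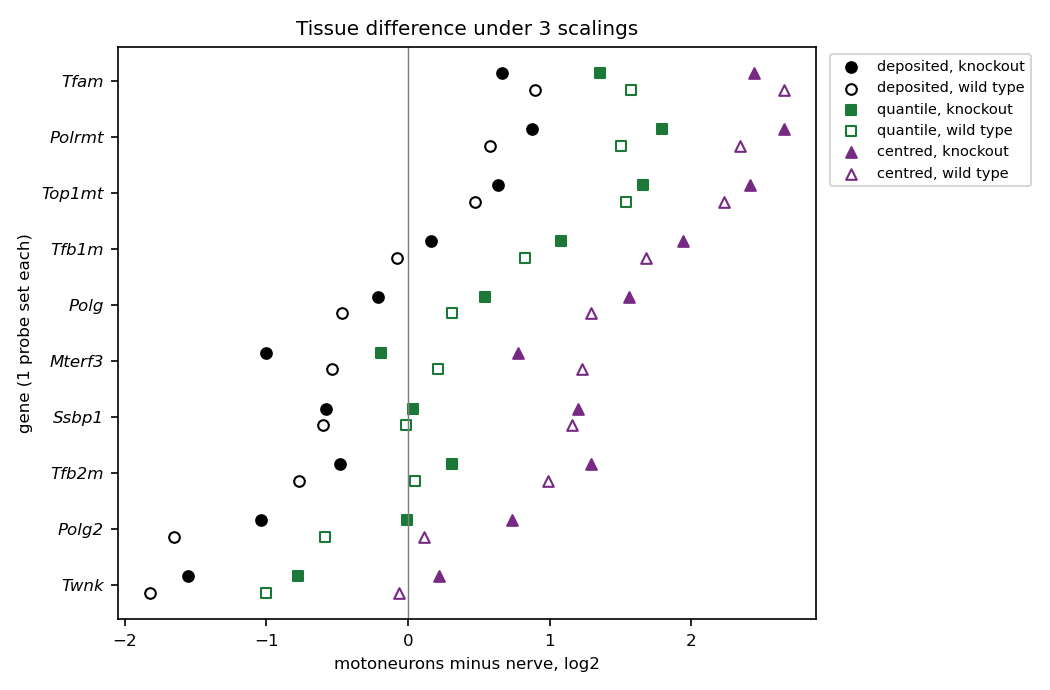
Motoneurons minus nerve difference (log2, x axis) of each member's highest-mean probe set (y axis) in knockout and wild type mice under 3 scalings. Polrmt, Tfam and Top1mt lie right of 0 under all 3, and Twnk is the lowest of the 10 genes under each.

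The other 5 genes changed sign with the scaling in at least 1 genotype. As deposited, knockout and wild type differences were 0.16 and -0.080 for Tfb1m, -0.21 and -0.47 for Polg, -0.48 and -0.77 for Tfb2m, -0.58 and -0.60 for Ssbp1, and -1.0 and -0.53 for Mterf3. After centring all 5 were higher in motoneurons in both genotypes.

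Genes that work beside the members were read from 5 lists. In the motoneuron genotype comparison 0 genes of any list passed, and the same held in nerve. Of 18 replication accessory and nucleoid genes measured, 8 were higher and 10 lower in knockout motoneurons (median -0.043). An unadjusted p under 0.05 was found for 4 of the 18, near the 20.8% of all genes, and all 4 were higher (9.94% of all genes were higher at that p and 10.9% lower). Atad3a, a nucleoid-associated ATPase of the inner membrane, read 11.91, 12.16 and 12.07 in knockout and 11.47, 11.55 and 11.64 in wild type motoneurons, a difference of 0.50 (adjusted p = 0.110 by limma). Lonp1, the matrix protease that degrades Tfam, differed by 0.49, the nuclease Exog by 0.46, and Poldip2 by 0.27. Without wild type array 3 these 4 and no others of that list passed, all higher, where 14.0% of all genes passed (5.62% higher and 8.40% lower). In nerve, Slc25a4, the muscle form of the adenine nucleotide carrier, differed by -0.066 and Mpv17, an inner membrane protein, by -0.11.

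The nucleotide supply list covers enzymes and carriers of DNA precursors. Of its 17 measured genes, 5 were higher and 12 lower in knockout motoneurons (median -0.12), with 6 at an unadjusted p under 0.05, 2 higher and 4 lower (20.8% of all genes). Rrm2b, the ribonucleotide reductase subunit of resting cells, read 12.26, 12.44 and 12.17 in knockout and 12.92, 12.87 and 12.55 in wild type motoneurons, a difference of -0.49 (adjusted p = 0.126 by limma). Suclg2, a subunit of succinyl-CoA ligase, differed by -0.90, the nucleotide kinase Cmpk2 by -0.61, and the pyrimidine nucleotide carrier Slc25a36 by -0.28. Without wild type array 3, 6 of the 17 passed, all lower in knockout, against 14.0% of all genes (8.40% lower). Dut, which removes dUTP and was named for its rank in nerve, differed there by -0.18 (adjusted p = 1 by limma), and by -0.45 in motoneurons with overlapping groups (adjusted p = 0.422 by limma).

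The list of transcript elongation, termination and processing was the longest. Of 29 genes, 19 were higher and 10 lower in knockout motoneurons (median 0.087), and 13 had an unadjusted p under 0.05, 9 higher and 4 lower, against 20.8% of all genes. Elac2, which cuts the 3′ ends of mitochondrial transfer RNA precursors, read 11.91, 12.03 and 11.85 in knockout against 11.41, 11.32 and 11.55 in wild type motoneurons, a difference of 0.50 (adjusted p = 0.109 by limma). Ptcd2, an RNA-binding protein, differed by 0.53 and Mrpl12, a ribosomal protein also reported to bind Polrmt, by 0.18. Grsf1, a protein of mitochondrial RNA granules, read 13.46, 13.37 and 13.39 in knockout against 13.68, 13.67 and 13.63 in wild type motoneurons, a difference of -0.25 (adjusted p = 0.108 by limma). Without wild type array 3, 8 of the 29 passed as higher and 4 as lower, against 5.62% and 8.40% of all genes. In nerve, Mterf2, a relative of Mterf3, differed by -0.35 and Pnpt1, an RNA-degrading enzyme, by -0.28, both with an adjusted p of 1 by limma.

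Nuclear regulators of these genes were split, with 7 of 13 higher and 6 lower in knockout motoneurons (median 0.12). An unadjusted p under 0.05 was found for 2 of the 13, 1 higher and 1 lower, against 20.8% of all genes. Without wild type array 3, 2 of the 13 passed, Yy1 and Myc, both lower in knockout, against 14.0% of all genes (8.40% lower). Myc was dim and read 5.51, 5.44 and 5.33 in knockout against 6.62, 7.105 and 4.63 in wild type motoneurons. The array left out was its lowest, and with that array the groups overlapped (difference -0.69, adjusted p = 0.590 by limma). Yy1, a zinc finger factor, read 11.11, 10.86 and 11.23 in knockout against 11.57, 11.83 and 11.45 in wild type motoneurons (difference -0.55, adjusted p = 0.137 by limma). Sirt3, a mitochondrial deacetylase, differed by 0.21, the ETS partner subunit Gabpb2 by -0.51, and the coactivator Ppargc1b by 0.23. Gabpb2 read 6.38, 5.95 and 6.02 in knockout against 6.34, 6.70 and 6.85 in wild type motoneurons, with overlapping groups. The array medians were 6.53 to 6.59. The related genes Gabpa and Gabpb1 differed by -0.033 and 0.12 (adjusted p = 0.971 and 0.715 by limma). In nerve, Myc differed by -0.48 and Nrf1 by 0.15.

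Of 15 mitochondrial transcripts listed, only ND5 was measured by a probe set of its own. It read 13.53, 13.75 and 13.58 in knockout motoneurons against 13.90, 13.97 and 13.79 in wild type motoneurons, so all knockout arrays were lower. The difference was -0.27 (SE 0.072, unadjusted p = 0.00641, adjusted p = 0.147 by limma), and -0.31 without wild type array 3 (adjusted p = 0.0313 by limma). In nerve ND5 differed by -0.081.

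**Figure D4:**
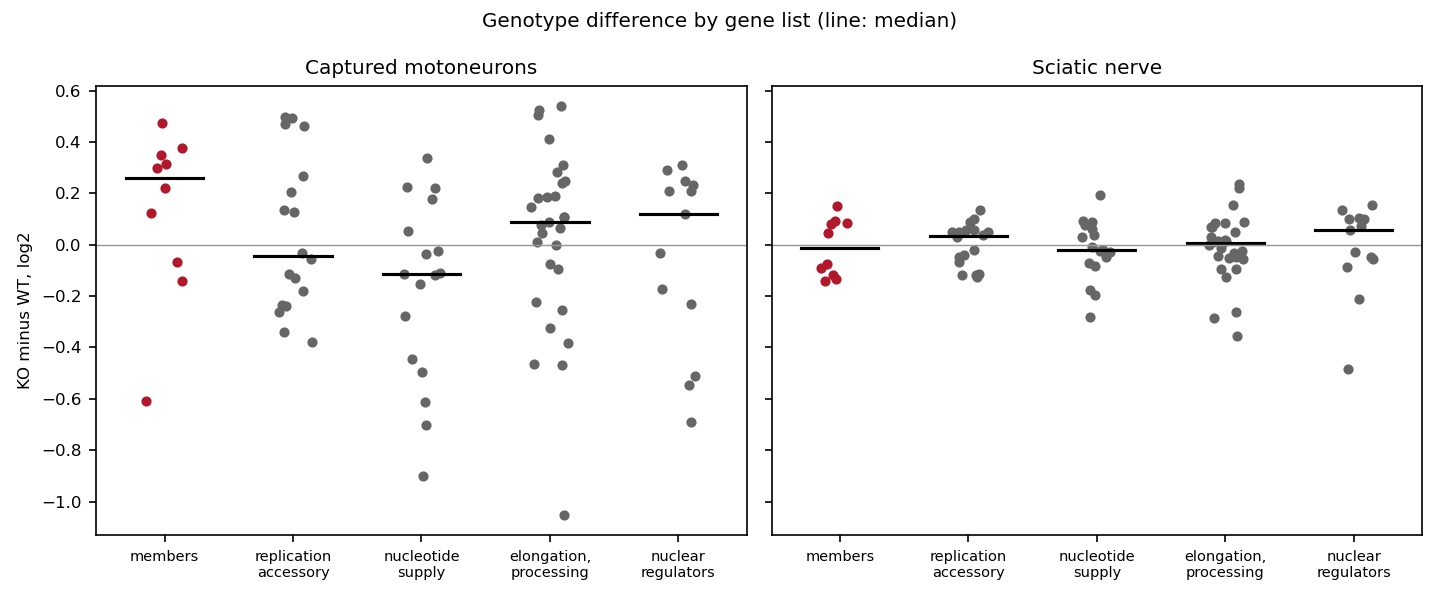
Knockout minus wild type difference (log2, y axis) in motoneurons and in nerve for each of the 10 members and each measured gene of the 4 lists with more than 1 gene (x axis), with a line at each median. The member median is 0.26 in motoneurons and -0.013 in nerve, and the medians of the 4 lists lie between -0.12 and 0.12 in motoneurons.

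The probe sets most like Tfam 1456215_at over the 12 arrays, after taking out each tissue's mean, were those of Pcnx4 (Pearson r 0.954), Bag4 (0.945), Napepld (0.929), Selenok (0.927) and A830010M20Rik (0.926). They were the highest of 16747 brighter probe sets compared, the arrays share their processing and tissue normalization, and the values are a description.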

How the data were processed

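The deposited series values were log2 signals per probe set of 12 Affymetrix arrays, 3 per tissue and genotype. Per the submitters' processing notes they were made with Affymetrix Expression Console 1.1; how probes were summarized and background was removed is not given in the sources used here. Per the labels' protocols, 20 ng of total RNA was amplified and labelled with biotin. With arrays, the number of arrays limits the precision. The 64 control probe sets were left out of 45101. Platform annotation was updated by Entrez ID against RefSeq (GRCm38.p6): 34945 probe sets had 1 symbol, 932 several and 9160 none, and 34741 matched.

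Each comparison was fitted with limma 3.58.1 (R 4.3.3), by lmFit and eBayes with a mean trend, two-sided, with Benjamini-Hochberg adjustment over 45037 probe sets and a threshold of 0.05. Genotypes were compared within a tissue on its 6 arrays, and the tissue-by-genotype term used all 12. The scripts were tested on simulated data. Tables and figures used Python 3.11.15 and matplotlib 3.10.9.

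Members and lists were chosen with earlier results of these data known. The genes named were every member probe set, up to 4 genes of each list with the smallest unadjusted p in motoneurons and up to 2 in nerve, the 5 most like Tfam among probe sets brighter than the median in both tissues, and every Gdap1 probe set. Gabpa and Gabpb1 were added beside Gabpb2. A gene with several probe sets is represented by the one with the highest mean. Samples are separate animals only as far as the labels call them biological replicates. The p-values set each difference against the spread between these samples, as moderated by limma over all probe sets.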

Additional observations from a re-analysis of the deposited data

How the results depend on the processing

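The alternatives were brighter probe sets only, no mean trend, array weights, arrays centred on their medians, and all 12 arrays in 1 fit. Others were a replicate block, Xist as a covariate, averaging the probe sets of a gene, quantile normalization and leaving out each array in turn. For tissue, quantile normalization took both tissues' arrays of a genotype together. For the tissue-by-genotype term it took all 12 arrays together and was chosen after seeing the data. For the genotype difference in motoneurons, 0 probe sets passed as reported, 61 with brighter probe sets only, 2929 with array weights (2 of them members), 828 with all 12 arrays in 1 fit (0 members), and 0 to 4646 leaving out 1 array, with 0 to 2 members. The highest came without wild type motoneuron array 3. In nerve 1 passed with all 12 arrays in 1 fit. For the genotype difference between tissues, 0 to 238 passed leaving out 1 array, 238 without wild type motoneuron array 3 and 2 each without wild type motoneuron array 1 and wild type nerve array 2. For tissue, brighter probe sets only gave 19115 calls in knockout (37262 reported) and 18336 in wild type mice (36992 reported), with fewer tested, and 9 to 14 members passed in wild type mice leaving out 1 array, 9 without wild type nerve array 1.

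Whether equal replicate numbers pair the samples is not stated. Same-numbered deviations of knockout and wild type arrays correlated by 0.090, -0.064 and -0.079 in motoneurons and 0.026, 0.305 and 0.216 in nerve. Those of motoneuron and nerve arrays correlated by -0.037, 0.050 and 0.047 in knockout and 0.017, -0.053 and -0.027 in wild type mice. With 3 arrays per group these values cannot decide the pairing. With the replicate block 0 probe sets passed in either genotype comparison (6773 at an unadjusted p under 0.05 in motoneurons, 1758 in nerve), 0 for the difference between tissues, and 36960 in knockout and 36402 in wild type mice for tissue.

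Some differences changed sign. With probe sets averaged, Mterf3 was 0.15 in motoneurons, 0.026 in nerve and 0.13 between tissues, Polg was -0.019 and Ssbp1 -0.16 between tissues, and Ssbp1 was 0.13 for tissue in wild type mice. In nerve Polrmt was 0.00017 with array weights. Leaving out 1 array, the nerve difference ran from -0.22 to 0.17 for Polrmt, -0.0071 to 0.15 for Tfam, -0.053 to 0.18 for Tfb2m, -0.060 to 0.17 for Polg and -0.061 to 0.27 for Top1mt, and the difference between tissues from -0.037 to 0.069 for Ssbp1. For tissue in knockout mice, centring gave 1.29 for Tfb2m, 1.56 for Polg, 0.74 for Polg2, 1.20 for Ssbp1, 0.22 for Twnk and 0.78 for Mterf3, and quantiles 0.31 for Tfb2m, 0.55 for Polg and 0.039 for Ssbp1. In wild type mice, centring gave 1.68 for Tfb1m, 0.99 for Tfb2m, 1.29 for Polg, 0.11 for Polg2, 1.16 for Ssbp1 and 1.23 for Mterf3, and quantiles 0.83 for Tfb1m, 0.052 for Tfb2m, 0.31 for Polg and 0.21 for Mterf3. The scalings also moved the median difference of all probe sets. In knockout mice it was -1.04, 0.16 and 0.74 as deposited, by quantiles and after centring, and in wild type mice -1.09, 0.15 and 0.67. The causes of the sign changes were not tested.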
